A study of Mus musculus with 4 samples.

Results

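The clustered core histone genes encode the H2A, H2B, H3 and H4 proteins, which together form the protein core of the nucleosome. They were taken as every row of the expression table whose Ensembl identifier carries, in the mouse annotation of the mm9 genome, a symbol of the Hist1, Hist2, Hist3 or Hist4 cluster for one of these 4 classes. This gave 62 of the 14533 genes in the table: 19 H2A, 18 H2B, 12 H3 and 13 H4 genes, with 49 in Hist1 on chromosome 13, 9 in Hist2 on chromosome 3, 3 in Hist3 on chromosome 11 and Hist4h4 alone on chromosome 6. The annotation holds 64 such genes, and Hist1h2br and Hist2h2aa1 had no row in the table and were not analysed here.

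Replication-dependent histone genes are transcribed as cells enter and pass through S-phase, when new nucleosomes are needed for the copied DNA. Transcription of the clusters is driven through the coactivator NPAT, a substrate of cyclin E and CDK2. The mRNAs have no introns and no poly(A) tail: they end just after a short stem-loop, which is bound by the stem-loop binding protein SLBP and cut by a complex that contains the U7 snRNP.

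The libraries were made from mouse embryonic stem cells (ESCs), sorted in G1-phase, that had been adapted for more than 20 days to serum medium ("serum ESCs", n = 2 libraries) or to 2i medium ("2i ESCs", n = 2 libraries), which has no serum and holds inhibitors of MEK (PD0325901) and of GSK3 (CHIR99021). Both media contained the cytokine LIF. The sample labels give late G1-phase and the series text early G1-phase, and no line, clone or sort gate is given per library; the study's methods describe ESCs with the FUCCI cell-cycle reporters for sorting. The comparison asks whether histone transcripts in G1-phase differ between serum and 2i ESCs. Replicates are described as biological, but nothing says whether they came from separate cultures or sorts.

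The RNA was depleted of ribosomal RNA and copied with random primers, a procedure that does not need a poly(A) tail, and was read as single 43-base reads. The 4 libraries held 18939401 to 26570098 reads in the table, of which 46.9 to 76.3% fell on protein-coding genes and 0.456 to 1.22% on core histone genes. All 8 ESC markers examined were measured in every library, with Pou5f1 at 8452 to 20050 normalized counts and Nanog at 9449 to 13612. Of 8 fibroblast markers 4 were in the table, with a sum of 1513 and 2876 in serum against 542 and 1302 in 2i, mostly Vim. Of 6 primitive endoderm markers 4 were in the table, with a sum of 72.0 and 109 in serum against 256 and 332 in 2i. The part of other cells in the histone values was not tested.

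Reads of 43 bases cannot always be given to one copy, since the histone genes of a class are nearly identical over much of their coding sequence. The 4 stretches below show this: each is 43 bases of coding sequence, as long as a read, and each is the stretch held by the most genes of its class. The H2A stretch is present in 18 of 20 annotated H2A genes, the H2B stretch in 16 of 19, the H3 stretch in all 12 and the H4 stretch in 11 of 13.
H2A, as in Hist1h2ai: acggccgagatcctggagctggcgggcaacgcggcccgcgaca
H2B, as in Hist1h2bl: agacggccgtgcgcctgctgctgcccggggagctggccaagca
H3, as in Hist1h3h: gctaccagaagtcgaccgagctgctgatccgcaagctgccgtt
H4, as in Hist1h4j: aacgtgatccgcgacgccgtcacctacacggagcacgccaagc
A read of any of these stretches could have come from most genes of the class. The H2A stretch also lies in Hist2h3c1, which is counted here as H3, and in Gm15444, which is not a core histone gene of this set. When the exons of each gene were cut into all their 43-base words, a median of 49.6% of a gene's words occurred in no other gene. Of the 62 genes, 7 had at least 80% words of their own and 14 had under 20%. Between classes the picture is different: 98.6% of H2B words, 94.0% of H4 words, 92.5% of H3 words and 80.8% of H2A words occurred in no gene outside the class. These shares pool all words of a class, and single H2A genes can lie far below. In Hist2h2aa2, the highest H2A gene per kb, 2.985% of words occurred in H2A genes alone. In Hist2h2ab it was 0% and in Hist1h2ap 62.7%. The sum over a class is thus better defined by these reads than the level of most single genes, but less so for H2A. Class sums are given first.

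The 3′ end of these genes carries the stem-loop that marks a replication-dependent histone mRNA. It was searched for in the 200 bases after the annotated coding end, and is shown here for 1 gene of each of 4 forms, with the 16 bases of the stem and loop in capitals.
Hist1h3b: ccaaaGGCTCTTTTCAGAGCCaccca
Hist1h3c: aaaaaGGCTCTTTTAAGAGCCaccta
Hist1h4d: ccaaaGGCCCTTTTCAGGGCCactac
Hist1h4b: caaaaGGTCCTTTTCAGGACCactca
The stem-loop was found in 53 of 59 core histone genes with an annotated coding end, 24 to 61 bases (median 33) after it, against 11 of 22319 other coding genes (0.0493%). Those 11 include H2afx and 6 linker histone genes of Hist1. The form shown for Hist1h3b was shared by 32 genes of the H2A, H2B and H3 classes, and that for Hist1h3c by 8. The forms shown for Hist1h4d and Hist1h4b occurred in H4 genes alone, in 8 and in 2 genes. No match was found in this window for Hist1h2an, Hist1h2al, Hist1h3g, Hist1h4a, Hist2h2be and Hist2h2bb, which says only that these letters are not there.

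Summed over all 62 genes, core histone transcripts reached 204016 and 224396 normalized counts in the serum libraries (replicates 1 and 2) and 102434 and 170371 in the 2i libraries. Both serum libraries lay above both 2i libraries, but the 2i libraries differed more from each other than 2i replicate 2 did from either serum library. The sum was 0.70 higher in serum on the log2 scale (SE 0.94, 95% interval -1.58 to 2.97), and this difference was smaller than the error (limma, adjusted p = 0.871). This SE comes in part from the variance trend over all rows and not only from the libraries of the sum. Replicate 1 minus replicate 2 was -0.14 in serum and -0.73 in 2i on the log2 scale. As a share of reads on protein-coding genes, which does not depend on the size factors, core histones made up 1.64% and 1.60% in serum against 0.788% and 1.297% in 2i. As a share of all reads in the table the groups overlapped, with 0.767% and 1.22% in serum against 0.456% and 0.860% in 2i. The 10 genes with the most reads held 50.6% and 17.5% of all reads in serum and 34.7% and 25.5% in 2i.

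H3 was the class whose 2i libraries lay closest together and whose groups were farthest apart. The 12 H3 genes summed to 61935 and 50155 in serum against 27637 and 30716 in 2i, so that the lower serum library was well above the higher 2i library. Replicate 1 minus replicate 2 was 0.30 in serum and -0.15 in 2i on the log2 scale. The difference between serum and 2i was 0.94 on the log2 scale, or 1.91-fold (SE 0.65, 95% interval -0.62 to 2.50; limma, adjusted p = 0.760). Leaving out any 1 library moved it only between 0.78 and 1.09. As for the total, the SE and interval draw on the variance trend over all rows. They do not measure the spread between the H3 libraries alone.

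The 18 H2B genes, whose proteins pair with H2A in the nucleosome, summed to 66636 and 73677 in serum against 29545 and 46742 in 2i. Again the groups did not overlap, and the difference was 0.91 on the log2 scale (SE 0.70; limma, adjusted p = 0.769). Without 2i replicate 1 it was 0.58, and without 2i replicate 2 it was 1.25.

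For H2A and H4 the groups overlapped. The 19 H2A genes summed to 34583 and 39624 in serum against 14850 and 37932 in 2i. Replicate 2 of 2i was thus between the serum libraries, and only 2i replicate 1 was low. The H2A difference of 0.64 (SE 0.71; limma, adjusted p = 0.838) became -0.04 without 2i replicate 1. The 13 H4 genes summed to 40862 and 60941 in serum against 30402 and 54981 in 2i. Here 2i replicate 2 was above serum replicate 1. The H4 difference of 0.29 (SE 0.72; limma, adjusted p = 0.934) became -0.14 without 2i replicate 1 and was 0.71 without 2i replicate 2. No class sum passed the threshold, and the 95% interval of each included both 0 and a difference of over 2-fold.

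**Figure D1:**
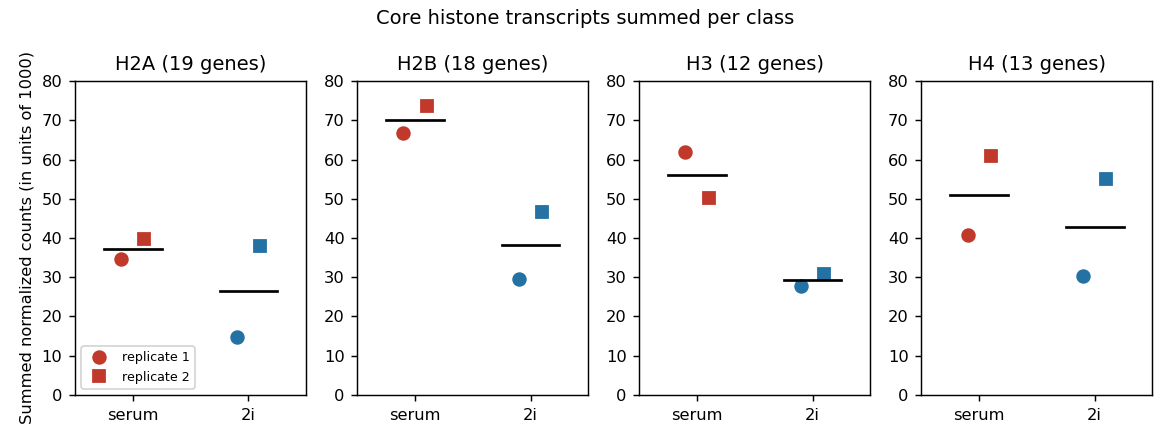
Summed normalized counts (in units of 1000, axis from 0) of the genes of each class in the 2 serum (red) and 2 2i (blue) libraries; circles are replicate 1, squares replicate 2 and bars group means. Serum and 2i are apart for H3 (50155 and 61935 against 27637 and 30716) and H2B, and overlap for H2A and H4.

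To compare the classes with each other, each gene's normalized count was divided by its exon length in kb before summing. The annotated exon lengths ran from 312 bases (Hist4h4) to 2955 (Hist2h3c1), and values per kb depend on them. Which annotated form the reads of a gene came from was not tested. On this scale H4 made up 24.8% and 33.8% of the core histone total in serum against 36.8% and 39.7% in 2i. H2B made up 31.3% and 30.0% in serum against 25.5% and 24.2% in 2i. The share of H4 was therefore lower, and that of H2B higher, in both serum libraries than in both 2i libraries. The H3 share was 28.2% and 19.6% in serum against 23.9% and 14.9% in 2i, so that it was higher in replicate 1 than in replicate 2 of both conditions. The H2A share ran from 13.7 to 21.2%, with both extremes in 2i. On the same per-kb scale, the log2 ratio of H2B to H4 was 0.34 and -0.17 in serum against -0.53 and -0.71 in 2i, while that of H3 to H4 overlapped (0.19 and -0.79 against -0.62 and -1.42). With 2 libraries against 2, an exact two-sided permutation test of such a ratio cannot give a p below 0.333.

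**Figure D2:**
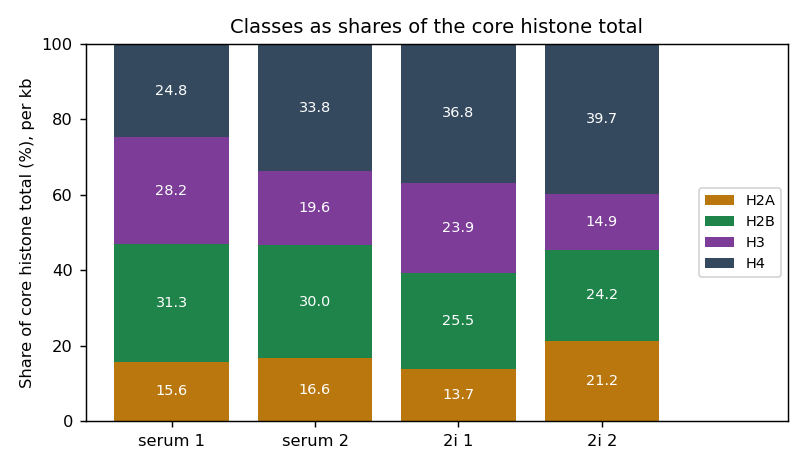
Share of each class in the core histone total per kb of exon (%, stacked bars, numbers are the shares) in each library. The H4 share was 24.8% and 33.8% in serum against 36.8% and 39.7% in 2i, and the H2B share was 31.3% and 30.0% in serum against 25.5% and 24.2% in 2i.

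Gene by gene, 47 of the 62 core histone genes had a log2 fold change above 0 (higher in serum) and 15 below 0, against 50.3% above 0 over the 13005 genes tested, and their median log2 fold change was 0.71 against 0.00 over all genes. All 12 H3 genes were above 0 (median 1.19), as were 13 of 18 H2B genes (0.94), 13 of 19 H2A genes (0.77) and 9 of 13 H4 genes (0.28). These counts lean on 2i replicate 1, in which 34 of the 62 genes had their lowest value. Without it, 34 of 62 genes were above 0 (median 0.24): 11 of 12 H3 (median 1.004), 10 of 18 H2B (0.34), 9 of 19 H2A (0.00) and 4 of 13 H4 genes (-0.15). Without 2i replicate 2 instead, 51 of 62 were above 0 (median 1.24). A correction for GC content and length, chosen after seeing the data, raised the medians of the genes tested to 1.62 for H3, 1.49 for H2A, 1.32 for H2B and 1.16 for H4, against 0.09 over all genes. Genes that share reads are not independent of each other in these counts.

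No core histone gene passed the test over all genes (adjusted p under 0.05 and over 2-fold, limma), where the background was 0.0154% of genes tested, that is 2 genes. At an unadjusted p under 0.05, 10 core histone genes were higher in serum, against 2.97% of all genes tested, and 2 were lower, against 3%. By class, 5 of 12 H3, 3 of 18 tested H2A and 2 of 18 H2B genes were among the 10, and no H4 gene was. edgeR on whole reads called no gene at all (0% of 13005). DESeq2 on whole reads called 4 core histone genes (Hist1h2bh and Hist1h3b higher in serum, Hist1h2aj and Hist1h2ao lower), against 1.93% of all genes. limma with the replicate as a block called 3 (Hist1h2bh and Hist1h2ap higher, Hist1h2aj lower), against 1.56% of all genes. With the block, the libraries leave little to measure a row's own spread, and the variance trend sets most of the error. Hist1h2ap was called although its values were 4432 and 6531 in serum against 0 and 2478 in 2i. Hist1h2ao and Hist1h2ap share 100% of their words. Their calls rest on zeros that depend on which copy was given the reads. Hist1h2aj also had 0 in serum replicate 1, and only 12.8% of its words were its own. Groups did not overlap, with serum above 2i, for 22 of the 61 genes tested, against 20.5% of all genes, and with serum below 2i for 4, against 19.4%. Of the 22, 7 were H3, 7 were H2B, 7 were H2A and 1 was an H4 gene. Hist1h2aa, the testis-type H2A gene, had 34.02 to 62.03 normalized counts in the 4 libraries and was below the minimum for a test.

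**Figure D3:**
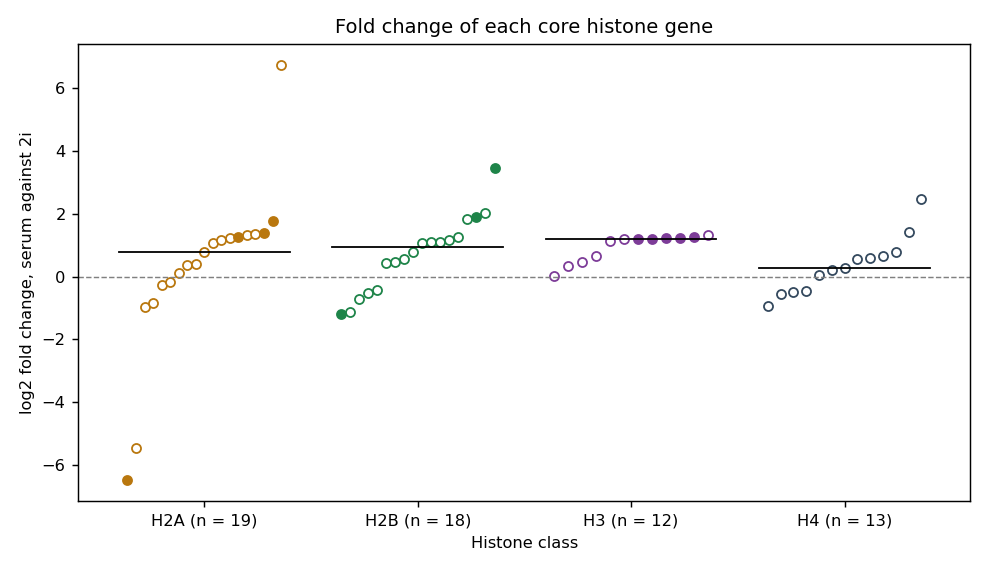
Log2 fold change (serum against 2i) of each core histone gene, sorted within its class; filled points have an unadjusted p under 0.05 (limma), lines are class medians and the dashed line is 0. The H3 genes lie between 0.01 and 1.31, while H2A reaches from -6.49 to 6.76.

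The H3 genes had similar fold changes, and 8 of the 12 lay between 1.14 and 1.31 on the log2 scale. Hist1h3b (chr13:23844136-23844755) had 6205 and 6264 normalized counts in serum against 2487 and 2792 in 2i. Both serum values were more than 2 times either 2i value, and the log2 fold change was 1.24 (SE 0.44; limma, adjusted p = 0.753). Hist1h3a (chr13:23853722-23854255) had 4021 and 4317 in serum against 1632 and 2018 in 2i (log2 fold change 1.199), and Hist1h3g (chr13:23627291-23627820) had 4089 and 3119 against 1446 and 1628 (1.22). Hist1h3d, with 74.2% words of its own, had 1325 and 2115 in serum against 866 and 569 in 2i (1.25). In each of these 4 genes the groups did not overlap. The H3 gene with the largest value, Hist1h3i (1.31), had 16001 and 4976 in serum against 6362 and 2032 in 2i, so that its replicates differed more than its groups. Hist1h3h, the highest H3 gene per kb, had 10031 and 7379 against 6678 and 5725 (0.48). The smallest values were those of Hist1h3f (0.33), with overlapping groups, and Hist2h3c1 (0.01), which had only 46.6 to 96.5 normalized counts.

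Among the H2B genes, Hist1h2bh (chr13:23634793-23635228) stood apart. It had 2800 and 2603 normalized counts in serum against 237 and 249 in 2i. The replicates of each condition were close, and the log2 fold change of 3.47 (11.1-fold) was the largest of any core histone gene whose value did not rest on a zero (SE 0.42; limma, adjusted p = 0.211 over all genes). It was 1 of the 10 genes with an unadjusted p under 0.05. It was also called by DESeq2 on whole reads and, with the limit given above, by the fit with the replicate as a block. Of its words 38.3% were its own. Hist1h2bf, the highest H2B gene per kb, had 16162 and 9625 in serum against 5172 and 2120 in 2i (1.91; limma, adjusted p = 0.753). Hist1h2be, with 83.1% words of its own, had 2001 and 7390 in serum against 514 and 2274 in 2i. Its groups overlapped, and replicate 2 was about 4 times replicate 1 in both conditions. In the opposite direction, Hist1h2bn had 394 and 526 in serum against 997 and 1082 in 2i (-1.19; limma, adjusted p = 0.753), and 12.4% of its words were its own. Hist1h2ba, the testis-type H2B gene, had 2049 in serum replicate 1 and 141 to 305 in the other libraries.

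The H2A genes had the widest range. Hist1h2ac, with 85.1% words of its own, had 2089 and 2221 normalized counts in serum against 355 and 1107 in 2i (1.78; limma, adjusted p = 0.753). Hist1h2ak had 3464 and 2977 against 983 and 1501 (1.40), and Hist1h2ag had 2184 and 3273 against 959 and 1317 (1.25). In these 3 genes both serum libraries were above both 2i libraries. Hist2h2aa2, the highest H2A gene per kb, has no words of its own and had 5521 and 6703 in serum against 4034 and 11730 in 2i, with the 2i libraries on either side of serum. Hist1h2aj, annotated as a pseudogene with 12.8% words of its own, had 0 and 11.7 in serum against 336 and 302 in 2i (limma, adjusted p = 0.753). It was called by DESeq2 on whole reads (adjusted p = 0.0021). The limma fit with the replicate as a block also called it (adjusted p = 0.0061), with the limit given above. Hist1h2aj shares many words with other H2A genes, and its sum with 1 of them had either sign. The log2 fold change was -7.87 with Hist1h2ao, -2.07 with Hist1h2an and -1.33 with Hist1h2af. It was 0.10 with Hist1h2ah, 0.89 with Hist1h2ag, 0.89 with Hist1h2ad, 1.06 with Hist1h2ab and 2.48 with Hist1h2ap. Which copy its reads came from was not tested. Hist1h2ab had 5336 and 3427 in serum against 1066 and 2698 in 2i (1.33).

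The H4 genes showed no common direction. Hist1h4d, the highest per kb, had 9016 and 5016 normalized counts in serum against 6115 and 6807 in 2i (0.06), with the 2i values between the serum values. Hist1h4h had 3854 and 8951 against 2428 and 6515 (0.56), again with overlap. Hist1h4k was the H4 gene with both serum libraries below both 2i libraries, with 1610 and 2317 against 4465 and 3008 (-0.92). Hist1h4c was the one with serum above, with 3410 and 4960 against 1750 and 3278 (0.78). None of the 13 had an unadjusted p under 0.05 in limma.

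The near-identical copies show what the sums were needed for. Hist1h2ao (chr13:21902236-21902754) and Hist1h2ap (chr13:21924926-21925444) lie on opposite strands and share 100% of their 43-base words. Hist1h2ao was at 0 in both serum libraries and in 2i replicate 2 and at 1943 in 2i replicate 1, while Hist1h2ap was at 0 in 2i replicate 1 and at 4432, 6531 and 2478 in the other libraries (serum 1, serum 2 and 2i 2). Each library thus gave all reads to 1 of the 2 copies. Their sum was 4432 and 6531 in serum against 1943 and 2478 in 2i, a log2 fold change of 1.29 (SE 0.47; limma, adjusted p = 0.754). The single-gene values of -5.46 and 6.76 come from the zeros and are no measure of size. Beside them lie Hist1h4m and Hist1h4n, which share 83.5% of their words. Hist1h4m had 8406 and 5041 in the replicate 1 libraries of serum and 2i and 17.5 and 0 in the replicate 2 libraries, whereas Hist1h4n had 415 and 942 in replicate 1 and 12143 and 10384 in replicate 2. Their sum was 8822 and 12161 in serum against 5983 and 10384 in 2i (0.39). Hist1h2bq went the same way as Hist1h4n, with 5.003 and 31.1 in replicate 1 and 4639 and 1759 in replicate 2. These 2 pairs and Hist1h2bq were singled out after their values were seen. Hist1h2br, which had no row, has the exon length of Hist1h2bq (2217 bases), and each has 1.8% words of its own. Hist2h2aa1, also without a row, has the exon length of Hist2h2aa2 (578 bases), and neither has words of its own. Whether reads of these absent copies are missing from the H2B and H2A sums was not tested.

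**Figure D4:**
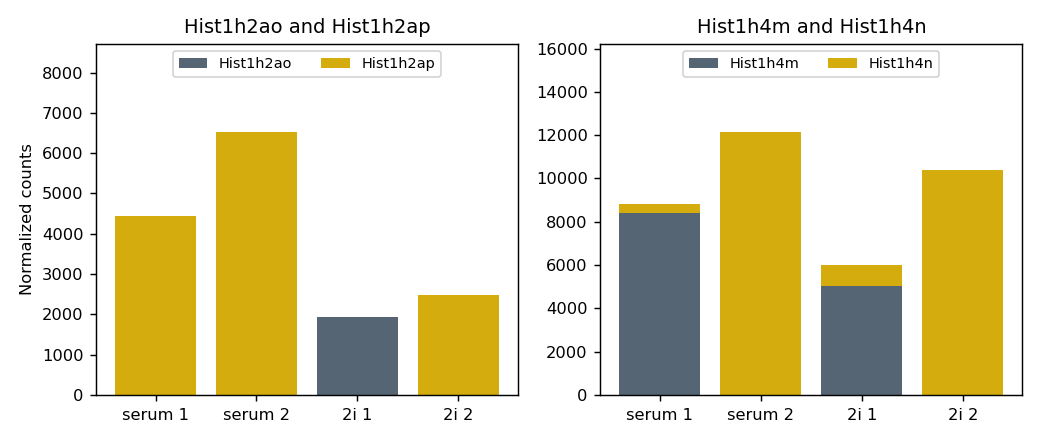
Normalized counts of 2 pairs of near-identical genes, stacked, in each library. Hist1h2ao holds all counts of its pair in 2i replicate 1 and none elsewhere, and Hist1h4m holds most of its pair in both replicate 1 libraries, while the pair sums change less.

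The median fold change differed between genes with few and many words of their own, but in no steady order. The median log2 fold change was 0.28 over the 7 genes with at least 80% own words, 0.65 over the 23 with 50 to 80%, 1.198 over the 18 with 20 to 50% and -0.37 over the 14 with under 20%. These bins differ in class: 7 of the 12 H3 genes are in the bin from 20 to 50%, and 8 of the 19 H2A genes in the lowest. The 7 genes with at least 80% own words are Hist1h2aa, Hist1h2ac, Hist1h2be, Hist2h2be, Hist2h2bb, Hist2h4 and Hist4h4. Of the 6 tested, Hist1h2ac and Hist2h2be had groups that did not overlap, both with serum higher, against 20.5% of all genes tested. Hist2h2be had only 4.85 to 76.0 normalized counts.

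By position, the Hist1 cluster falls into 2 runs and 1 distant gene, split at gaps of over 250 kb. In the run at 21.8 to 22.1 Mb of chromosome 13 in mm9, 14 of 22 genes were above 0 (median 0.47), and in the run at 23.6 to 24.0 Mb 25 of 26 were (median 1.13). The first run summed to 73702 and 78844 normalized counts in serum against 41342 and 58996 in 2i (0.63), and the other to 102170 and 123124 against 42858 and 78806 (0.95). As sums the runs were therefore closer than as medians. A median of 22.7% of a gene's words were its own in the first run and 53.7% in the other, and the first run holds the near-identical pairs and 2 H3 genes against 7. Hist1h2al, alone at 51.3 Mb, had 1785 and 746 in serum against 1516 and 3450 in 2i (-0.99). The difference between the runs was not tested.

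**Figure D5:**
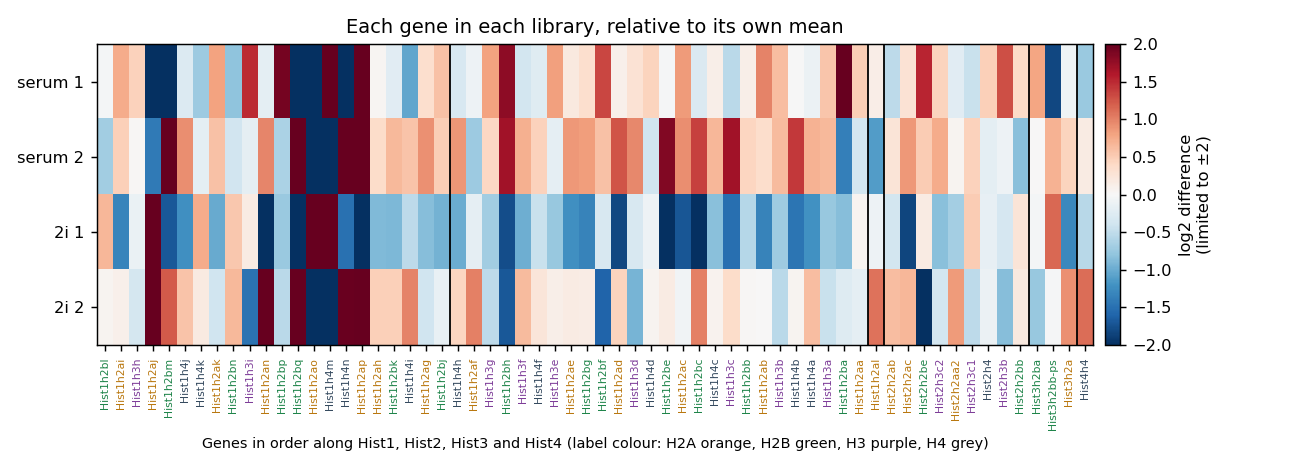
Log2 normalized count of each core histone gene in each library minus the gene's mean over the 4 libraries (colour, limited to ±2), in order along the clusters; vertical lines part the runs of Hist1 and the other clusters. The 2i replicate 1 row is bluest over most of the second Hist1 run, where 20 of 26 genes had their lowest value in it.

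The sums of Hist1 and Hist2 are given side by side, and their difference was not tested. Hist1 summed to 177658 and 202714 normalized counts in serum against 85716 and 141252 in 2i (0.79; limma, adjusted p = 0.846), and Hist2 to 23780 and 17927 against 14776 and 23403 (0.15; adjusted p = 0.963), with overlapping groups. Within Hist2 the classes had unlike values. Its 3 H3 genes summed to 8199 and 5101 in serum against 2940 and 2651 in 2i (1.21, SE 0.48; limma, adjusted p = 0.756). The largest of them, Hist2h3b (chr3:96072577-96073064), had 5923 and 2264 against 1929 and 1337 (1.19), and Hist2h3c2, annotated as a pseudogene, had 2227 and 2744 against 915 and 1268 (1.198). Its H2B sum, nearly all Hist2h2bb, was 7177 and 3089 in serum against 6484 and 6187 in 2i (-0.43). Its H2A sum was 6920 and 8801 against 4396 and 13581 (0.01). Hist2h2ac had 1351 and 2015 against 308 and 1744, Hist2h2ab 48.0 and 83.6 against 54.0 and 108, and Hist2h4 1485 and 936 against 955 and 984. Hist2h2be, with 99.7% words of its own, was low throughout, at 76.0 and 36.9 in serum against 29.1 and 4.85 in 2i.

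Hist3 and Hist4 were a small part of the total. Per kb, Hist1 made up 86.3 to 92.1% of core histone transcripts, Hist2 6.28 to 10.2%, Hist3 0.384 to 0.564% and Hist4 0.686 to 2.999%. Hist3h2a had 1226 and 1776 normalized counts in serum against 533 and 2463 in 2i, Hist3h2ba 504 and 291 against 282 and 171, and the pseudogene Hist3h2bb-ps 24.0 and 142 against 194 and 86.3. Only Hist3h2ba of these 3 had groups that did not overlap. Hist4h4, an H4 gene with 100% words of its own, had 824 and 1546 in serum against 933 and 2996 in 2i (-0.57, SE 0.67; limma, adjusted p = 0.850). Its sign was set by 2i replicate 2, without which it was 0.27.

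Many H2A and H2B genes lie head to head and share the stretch between their start sites. There were 12 such pairs, with 167 to 305 bases between the annotated genes. Both genes of the pair were above 0 in 8 pairs, both below 0 in 1, and on opposite sides in 3. Over the 12 pairs the 2 fold changes had a Pearson correlation of 0.32 and a Spearman correlation of 0.05, given as a description, since the genes share libraries. The pair with both below 0 is that of Hist1h2ao, whose value comes from zeros, and without it the correlations over 11 pairs were 0.14 and -0.06. The stretches are shown for a pair whose genes had like values and for a pair with opposite signs, from the plus strand of mm9. Capitals mark the octamer (ATTTGCAT or ATGCAAAT), which OCT1 and related POU factors bind, TATA boxes (TATAAA or TTTATA) and CCAAT boxes (CCAAT or ATTGG).
Hist1h2ae and Hist1h2bg, chr13:23663090-23663264: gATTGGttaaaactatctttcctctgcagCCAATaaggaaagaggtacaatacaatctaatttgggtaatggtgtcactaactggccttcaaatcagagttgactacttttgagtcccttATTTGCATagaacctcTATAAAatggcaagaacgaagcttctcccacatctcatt
Hist1h2ak and Hist1h2bn, chr13:21845777-21845991: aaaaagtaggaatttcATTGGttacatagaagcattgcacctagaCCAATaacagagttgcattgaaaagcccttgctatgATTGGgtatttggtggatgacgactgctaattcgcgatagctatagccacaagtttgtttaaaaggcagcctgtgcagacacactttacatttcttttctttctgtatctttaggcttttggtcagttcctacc
The first stretch holds 1 octamer, 1 TATA box and 2 CCAAT boxes. Its genes had log2 fold changes of 1.07 for Hist1h2ae (864 and 1371 normalized counts in serum against 320 and 838 in 2i) and 1.18 for Hist1h2bg (7537 and 10658 against 2363 and 6620). The other holds 3 CCAAT boxes and no octamer in these letters, and its genes had 1.40 for Hist1h2ak and -1.19 for Hist1h2bn. In the other 2 pairs with opposite signs the H2B gene was also the lower one: Hist1h2bl, with 14.7% words of its own, and the pseudogene Hist3h2bb-ps.

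Promoters from RefSeq on GRCm38.p6, from 250 bases before to 50 after the start, were matched for 53 of the 62 genes. The octamer was found in 7 of 16 H2A and 7 of 15 H2B promoters and in none of 10 H3 or 12 H4 promoters, against 1.97% of all 27025 promoters. A CCAAT box was found in all 16 H2A, 15 H2B and 10 H3 promoters but in 3 of 12 H4 promoters, against 41.1% of all. A TATA box was found in 10 H2A, 8 H2B, 4 H3 and 8 H4 promoters, against 15.7% of all. An E2F site, searched as TTTCCCGC, TTTGGCGC, TTTGCCGC or TTTCGCGC, was found in 5 H2A, 4 H2B, 1 H4 and no H3 promoter, against 2.61% of all. Motifs were counted on both strands, and promoters of head-to-head pairs overlap. Of the 10 genes with an E2F site 9 were above 0 (median log2 fold change 0.93), and of the 43 without 32 were (0.66). These 2 sets differ in class, and within classes the medians went both ways. For H2A the median was 0.77 over 5 genes with a site and 1.07 over 11 without. For H2B it was 1.18 over 4 with a site and 0.55 over 11 without. Of the 14 with an octamer 13 were above 0 (0.81), and of the 39 without 28 were (0.77). A match is a match of letters only, and binding was not measured here.

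The factors that transcribe and trim histone mRNAs were taken from a fixed list of 18 symbols, of which 17 were in the table. Of these 13 were above 0 (median 0.40), against 50.3% of all genes tested. None passed the test, and only Zfp473 had an unadjusted p under 0.05 (limma). Serum was above 2i without overlap in 7 of the 17, against 20.5% of all genes tested, and below in 3, against 19.4%. Zfp473, a component of the U7 snRNP machinery, had 415 and 611 normalized counts in serum against 90.3 and 124 in 2i (2.24, SE 0.52; limma, adjusted p = 0.753). Npat, the coactivator of the clusters, had 1189 and 1581 against 828 and 686 (0.86), and Casp8ap2, which encodes the processing factor FLASH, had 2724 and 4898 against 1299 and 2077 (1.15). In these 3 genes the groups did not overlap. Slbp had 3096 and 4454 against 1998 and 3960 (0.40), with overlap. The U7 snRNP proteins Lsm10 (-0.71) and Lsm11 (-0.23) had both serum libraries below both 2i libraries, as did Sympk (-0.71).

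Of 8 linker histone genes, 6 of which lie in Hist1, 6 were above 0 (median 0.95), against 50.3% of all genes tested. Their sum was 40306 and 40011 normalized counts in serum against 17129 and 32224 in 2i, lowest in 2i replicate 1 as for the core histones. A list of H2A and H3 variant genes outside the clusters, most of them replication-independent, had a median of -0.08, with 4 of 9 above 0. Its member H2afx also carries the stem-loop. Of these, H3f3a had 4125 and 5585 against 4478 and 5733, and H3f3b 6009 and 7393 against 7235 and 10453. H2afz had 2580 and 2899 in the replicate 1 libraries of serum and 2i and 17621 and 20255 in the replicate 2 libraries. In 2 of the 9 genes the groups did not overlap. Serum was above 2i in 1, against 20.5% of all genes tested, and below in 1, against 19.4%. Cenpa, the centromeric H3, had 2225 and 1768 against 841 and 537 (1.56; limma, adjusted p = 0.753), and H2afj had 567 and 464 against 672 and 1573 (-1.002; limma, adjusted p = 0.753). None of the 17 genes passed the test.

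Genes of S-phase entry were mostly higher in value in serum too. Of 15 listed genes 14 were above 0 (median 0.68), against 50.3% of all genes tested. At an unadjusted p under 0.05 (limma) 4 were higher in serum, against 2.97% of all genes, and none passed the test. Their sum was 62012 and 74081 normalized counts in serum against 33593 and 57143 in 2i, with the lowest value again in 2i replicate 1. In 8 of the 15 genes both serum libraries were above both 2i libraries, against 20.5% of all genes tested. In 7 the groups overlapped. Of the cyclin E genes, Ccne1 had 2654 and 4612 against 877 and 1710 (1.51). Ccne2 had 674 and 2141 against 189 and 695 (1.73), with overlap. Ccna2, which encodes cyclin A, had 3666 and 4262 against 1467 and 948 (1.74). In RNA from many sorted cells, fewer cells near S-phase and less histone RNA per cell cannot be told apart. The part of cells past G1-phase in the histone values was not tested.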

How the data were processed

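Sorted G1-phase serum and 2i ESCs were profiled by RNA-seq (2 libraries each). According to the study's methods, reads were aligned to mm9 with Bowtie and quantified with MMSeq, which shares out reads that fit several transcripts. Versions, and whether strand was used, are not given in the sources used here. The deposited values are a signal per gene: read counts divided by the authors' DESeq2 size factor of each library, and every value lay within 0.000451 of a whole multiple of 1 step per library. This division makes libraries comparable only if most genes do not differ. The deposited table gives the group of each column by name.

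Serum was compared with 2i by limma (3.58.1, R 4.3.3, variance trend) on log2(normalized count + 1), without a replicate term, for the 13005 genes with a group mean of at least 50. Fold changes on this scale understate those of low genes. Benjamini-Hochberg adjustment covered all rows tested, and called genes had an adjusted p under 0.05 and a log2 fold change over 1 in size. For sums, the table was refitted with the members' rows replaced by their sum. Two-sided intervals are 95% intervals of limma. Alternatives were other pseudocounts, filters and scalings, edgeR (4.0.16) and DESeq2 (1.42.0) on whole reads recovered by dividing by the step, a replicate block, each library left out and, chosen after seeing the data, a correction for GC content and length (mgcv 1.9.3) sums of near-identical pairs and a correlation without 1 head-to-head pair. Only the limma fit of single genes was run on simulated data, with fold changes larger than those of the class sums. That run did not cover sums, shared reads, the replicate block, edgeR or DESeq2. With 2 libraries a group, limma draws the error of a row in part from the variance trend over all rows. With the replicate block it does so to a larger part. The SE, intervals and p-values of limma thus do not measure the spread between a row's own libraries alone. That spread may be technical.

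Genes were named by rule: per class the 3 highest, the largest and smallest fold change, every unadjusted p under 0.05, every Hist2, Hist3 and Hist4 gene, every gene with at least 80% own words, and any gene of the lists of processing factors, linker H1, H2A and H3 variants, S-phase entry, ESC, fibroblast and primitive endoderm genes. Other genes named were chosen after their values were seen. The members, lists and rules were chosen with earlier results of these data known. Gene models and the stem-loop and word searches used GENCODE vM1 on mm9 (NCBIM37).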

Additional observations from a re-analysis of the deposited data

How the results depend on the processing

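With 2 libraries a group, single libraries set many values. Without 1 library at a time, the core histone total stayed higher in serum (0.33 to 1.06, log2), as did H3 (0.78 to 1.09), H2B (0.58 to 1.25) and Hist1 (0.43 to 1.15), while H2A ran from -0.035 to 1.32, H4 from -0.14 to 0.71, Hist2 from -0.18 to 0.48, Hist3 from -0.47 to 0.96 and Hist4 from -1.41 to 0.27. The sign also changed for Hist1h4d (-0.36 to 0.48), Hist1h4h (-0.15 to 1.27), Hist1h4m (-3.68 to 8.62), Hist1h4n (-2.91 to 1.96), Hist2h2aa2 (-0.95 to 0.59), Hist2h2ab (-0.75 to 0.23), Hist2h2ac (-0.080 to 2.42), Hist2h2bb (-1.05 to 0.17), Hist2h3c1 (-0.51 to 0.53), Hist2h4 (-0.050 to 0.61), Hist3h2a (-0.74 to 1.47), Hist3h2bb-ps (-2.38 to 0.13) and Hist4h4 (-1.41 to 0.27). A lone library was assumed to vary like the others.

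Over all genes, 2 were called, both higher in 2i. A minimum mean of 200 gave 4, limma without a trend 1, edgeR on whole reads 0 (787 at an unadjusted p under 0.05), DESeq2 on whole reads 251 (73 higher and 178 lower in serum) and leaving out a library 0 to 8, with 8 without serum replicate 1. The fit with a replicate block called 203 (44 higher, 159 lower). Of core histone genes limma called 0, DESeq2 4 and the replicate block 3. These calls include Hist1h2ao and Hist1h2ap, whose zeros depend on which copy was given the reads. They also include Hist1h2aj, with 0 in serum replicate 1 and 12.8% words of its own. Only 2 pairs exist, too few to show that equal replicate numbers mark paired libraries, and the differences between replicates correlated at 0.48 across all genes and 0.56 across core histone genes.

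The median over core histone genes stayed between 0.59 (upper quartile scaling, which moved the median of all genes to -0.13) and 0.79 under the other scalings, filters, pseudocounts and tools, was 0.28 over the 7 genes with at least 80% own words, and was 1.33 after a correction for GC content and length (all genes 0.09). Class and cluster sums kept their sign under all of these that were run on sums. Hist2h3c1 turned to -0.0014 with TMM, -0.12 with upper quartile, -0.0058 per coding read, -0.059 with edgeR and -0.043 with DESeq2, Hist1h4d to -0.069 with upper quartile, Hist1h4n to 0.11 with edgeR and 0.13 with DESeq2, and Hist3h2a to -0.020 and -0.0098 with these. The causes were not tested.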
